A study of Mus musculus with 4 samples.

Results

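Nuclear-encoded genes of the mitochondrial respiratory chain were examined in the cerebellum of mice given the insecticide clothianidin. They were chosen by name: every probe set whose gene symbol begins with Nduf, Sdha, Sdhb, Sdhc, Sdhd, Uqcr, Cox4i, Cox5, Cox6, Cox7, Cox8, Cycs or Atp5, without 4 probe sets of the Sdhaf family, and with 1 probe set per gene. This gave 94 genes among 19505 named genes and 22206 probe sets. They comprised 36 subunit genes of complex I, 8 assembly factor genes of complex I, 4 genes of complex II, 8 of complex III, the cytochrome c gene Cycs, 20 genes of complex IV and 17 of complex V. The clothianidin group held 2 arrays (replicates 6 and 7), from mice dosed by mouth at 50 mg per kg per day over 4 days of rotarod testing, in which a mouse balances on a turning rod. The vehicle group also held 2 arrays (replicates 7 and 9), from mice given vehicle over the same 4 days. All were male C57BL/6N mice aged 10 weeks, and all ran on the rotarod, so the vehicle mice had the motor task too. Each sample was hybridised to its own array. The labels call them separate samples and give no source animal or culture beyond that, so a p-value measures only the spread between arrays, which may be technical.

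The respiratory chain passes electrons from NADH and succinate to oxygen and pumps protons across the inner mitochondrial membrane, and ATP synthase uses the proton gradient to make ATP. Complex I takes electrons from NADH, complex II from succinate, and complex III hands them through cytochrome c to complex IV, which reduces oxygen, while complex V is the ATP synthase. Apart from a small set of subunits encoded in mitochondrial DNA, the subunits are encoded by nuclear genes and imported. Neurons of the cerebellum depend on this pathway for the ion pumping that follows firing.

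The deposited values are RMA summaries on a log2 scale, so a difference of 1 is a 2-fold difference, and a level of one probe set cannot be set against that of another. Over all probe sets the array medians were 6.49 and 6.50 on clothianidin replicates 6 and 7, and 6.50 and 6.54 on vehicle replicates 7 and 9. Pearson's r between any pair of arrays over all probe sets was 0.986 to 0.989. Among cell type markers, the 6 of Purkinje cells all had higher means with clothianidin. Of these 5 did not overlap and 5 were highest on clothianidin replicate 7. Over all probe sets 48.1% had a higher mean, 15.1% were higher without overlap and 21.1% were highest on that array. Among the 4834 probe sets with a mean level of at least 10, 60.3% had a higher mean and 1077 were higher without overlap. The Purkinje cell markers had mean levels of 16.24 and 16.65 with clothianidin and 16.13 and 15.96 with vehicle. Of the 8 granule cell markers 5 had higher and 3 lower means, with mean levels of 15.85 and 15.40 with clothianidin and 15.43 and 15.20 with vehicle. The 6 oligodendrocyte markers all had lower means with clothianidin (median log2 difference -0.34), with mean levels of 12.92 and 12.84 with clothianidin and 13.39 and 13.12 with vehicle. Clothianidin replicate 7 stood apart in Ttr, a gene of the choroid plexus, at 13.96, against 6.38 on clothianidin replicate 6 and 5.70 and 5.67 on the vehicle arrays. Of 8 choroid plexus markers 6 had a higher mean with clothianidin, and their mean level per array was 6.21 and 7.52 with clothianidin and 6.16 and 5.86 with vehicle. Over the 7 markers other than Ttr it was 6.19 and 6.60 with clothianidin and 6.23 and 5.89 with vehicle. In tissue samples such as these, fewer cells of a type and less RNA per cell cannot be told apart. The part of these cell types in the results below was not tested.

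Over the 94 genes, clothianidin replicate 7 exceeded replicate 6 by a median of 0.67 (log2), and vehicle replicate 7 exceeded replicate 9 by 0.34. The median difference between the groups was 0.16. Over all probe sets the same medians were -0.01, 0.05 and -0.01. Clothianidin replicate 7 held the highest value of the 4 arrays for 67 of the 94 genes (71.3%), against 21.1% of all probe sets. The lowest value lay on vehicle replicate 9 for 45 genes (47.9%) and on clothianidin replicate 6 for 38 (40.4%), against 27.6% and 25.3% of all probe sets. The remaining genes had their highest value on vehicle replicate 7 (19 genes, against 26.6% of all probe sets), clothianidin replicate 6 (7, against 26.2%) or vehicle replicate 9 (1, against 24.5%). The lowest value was on vehicle replicate 7 for 7 genes and clothianidin replicate 7 for 2, against 21.4% and 23.9% of all probe sets, and tied for 2 genes. Taking each gene's value minus its mean over the 4 arrays, the median deviation of the 94 genes was -0.26 and 0.45 on clothianidin replicates 6 and 7, and 0.08 and -0.23 on vehicle replicates 7 and 9. Over all probe sets these medians were 0.00, -0.01, 0.02 and -0.03 in the same order. So both vehicle arrays lay between the clothianidin arrays by this measure, vehicle replicate 9 only just so, and the groups overlapped. Over the 85 genes with a mean at or above the median of all probe sets, vehicle replicate 9 was lowest instead. Its median deviation was -0.25 there, against -0.21 on clothianidin replicate 6. For 27 of the 94 genes (28.7%) clothianidin replicate 7 was the highest and clothianidin replicate 6 the lowest array, against 7.34% of all probe sets.

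**Figure D1:**
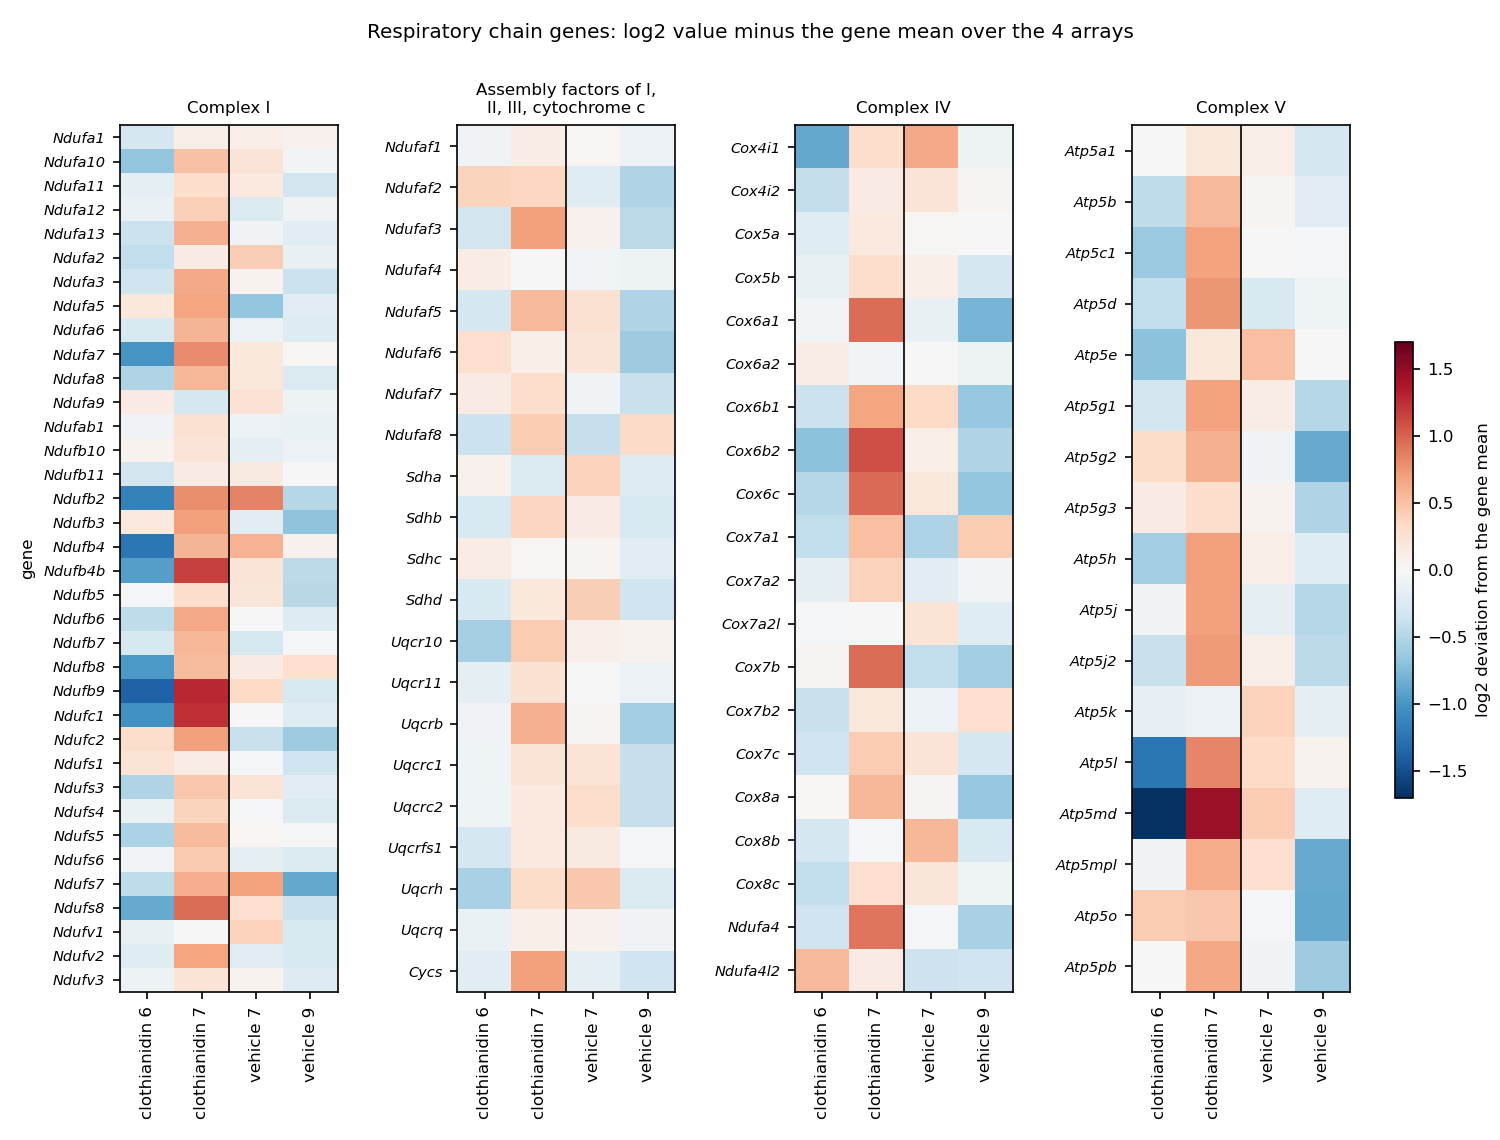
Each row is 1 of the 94 respiratory chain genes and each column 1 array, clothianidin replicates 6 and 7 left of the line and vehicle replicates 7 and 9 right of it; colour gives the log2 value minus the gene's mean over the 4 arrays, red above and blue below. The column of clothianidin replicate 7 is mostly red, with a median of 0.45, while those of clothianidin replicate 6 and vehicle replicate 9 are mostly blue, with medians of -0.26 and -0.23.

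In complexes I, III, IV and V clothianidin replicate 7 had the highest median and vehicle replicate 7 came next, and complex II departed from that order. Complex V, the ATP synthase, had median deviations of -0.32 and 0.66 on clothianidin replicates 6 and 7, and 0.10 and -0.30 on vehicle replicates 7 and 9. Complex I had -0.30 and 0.56 with clothianidin and 0.09 and -0.21 with vehicle. For both, clothianidin replicate 7 was far above the other arrays, being the highest for 15 of 17 complex V genes and 27 of 36 complex I genes. Complex IV had -0.31 and 0.35 with clothianidin and 0.08 and -0.27 with vehicle. Complex III had a smaller range, with -0.14 and 0.25 with clothianidin and 0.12 and -0.17 with vehicle. Complex II had -0.09 and 0.10 with clothianidin and 0.27 and -0.24 with vehicle, so its highest median lay on a vehicle array. The complex I assembly factors had 0.03 and 0.33 with clothianidin and -0.01 and -0.41 with vehicle, and theirs was the only class of the 7 in which both clothianidin medians lay above both vehicle medians. Differences between complexes were not tested, since genes of a complex share the same 4 arrays.

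**Figure D2:**
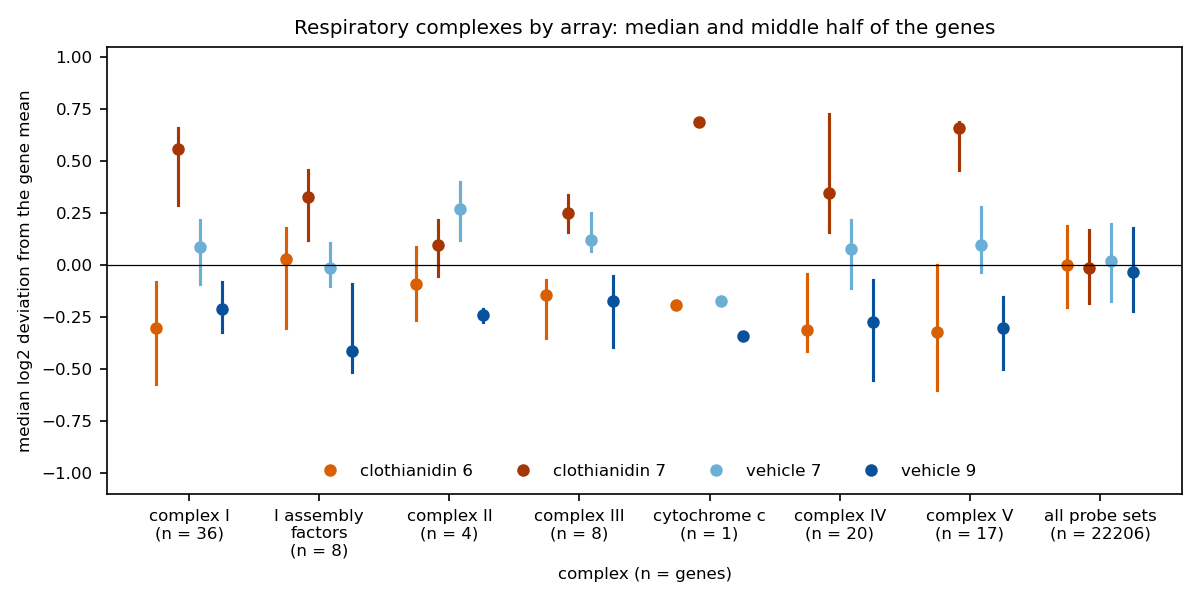
For each complex the 4 points are the median deviation of its genes from their means over the 4 arrays (log2, vertical axis) on clothianidin replicates 6 and 7 and vehicle replicates 7 and 9, and the lines run from the lower to the upper quartile of the genes. In complexes I, IV and V both vehicle points lie between the clothianidin points, in complex II the highest point is vehicle replicate 7, and for all probe sets the 4 medians are within 0.03 of 0.

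The design asks which transcripts differ between mice given clothianidin and mice given vehicle. No respiratory chain gene passed limma at an adjusted p of 0.05, as no probe set did (0.0% of 22206), and the smallest adjusted p of any of the 94 genes was 0.997. The mean was higher with clothianidin for 64 genes, lower for 29 and equal for 1, against 48.1% higher and 51.2% lower over all probe sets, and the median log2 difference was 0.16 (all probe sets -0.01). Probe sets at high levels leaned the same way. Among the 2182 no lower than the 94 genes' own median level, 60.3% had a higher mean, with a median log2 difference of 0.08. The sign of the median of the 94 genes turned with 1 array. It was -0.15 without clothianidin replicate 7, when 32 genes were higher and 62 lower, and 0.01 without vehicle replicate 9, when 47 were higher and 45 lower. It was 0.52 without clothianidin replicate 6 and 0.30 without vehicle replicate 7. After a further quantile normalization it was 0.09, with 58 higher and 35 lower.

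For 8 genes (8.51%) limma's unadjusted p was under 0.05, all with higher means in clothianidin mice, against 2.3% of all probe sets higher and 1.93% lower (4.23% in either direction). The groups did not overlap for 18 genes (19.1%), again all higher with clothianidin. Over all probe sets 15.1% were higher and 15.5% lower without overlap (30.6% together). Probe sets at high levels were more often higher without overlap. Among the 2182 no lower than the respiratory chain genes' own median level, 501 were higher without overlap and 209 lower. Set against these, the 19.1% was no excess of higher genes, though all 18 were higher. Of the 18 genes, 11 (11.7% of the respiratory chain genes) were at least 1.5-fold apart. Over all probe sets 4.04% were so far apart and higher, and 3.57% lower (7.61% together). The 11 genes were Ndufa5, Ndufb3, Ndufc2, Ndufaf2, Cox6a1, Cox7b, Ndufa4l2, Atp5g2, Atp5j, Atp5o and Atp5pb. Leaving out 1 array moved these counts and, for the last, the directions. The number at unadjusted p under 0.05 was 17 without clothianidin replicate 6, against 2.59% of all probe sets, and 1 when vehicle replicate 9 was left out, against 3.83%. Without clothianidin replicate 6, 41 genes were at least 1.5-fold higher and 0 lower, against 7.14% and 6.02% of all probe sets. Without clothianidin replicate 7, 7 were higher and 16 lower, against 8.51% and 8.88%. Leaving out vehicle replicate 7 gave 27 higher and 0 lower, against 8.75% and 9.81%, and leaving out vehicle replicate 9 gave 5 higher and 6 lower, against 6.92% and 7.62%. Of the 11 genes above, 10 were again at least 1.5-fold apart without clothianidin replicate 6, 7 without clothianidin replicate 7, 11 without vehicle replicate 7 and 5 when vehicle replicate 9 was left out.

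**Figure D3:**
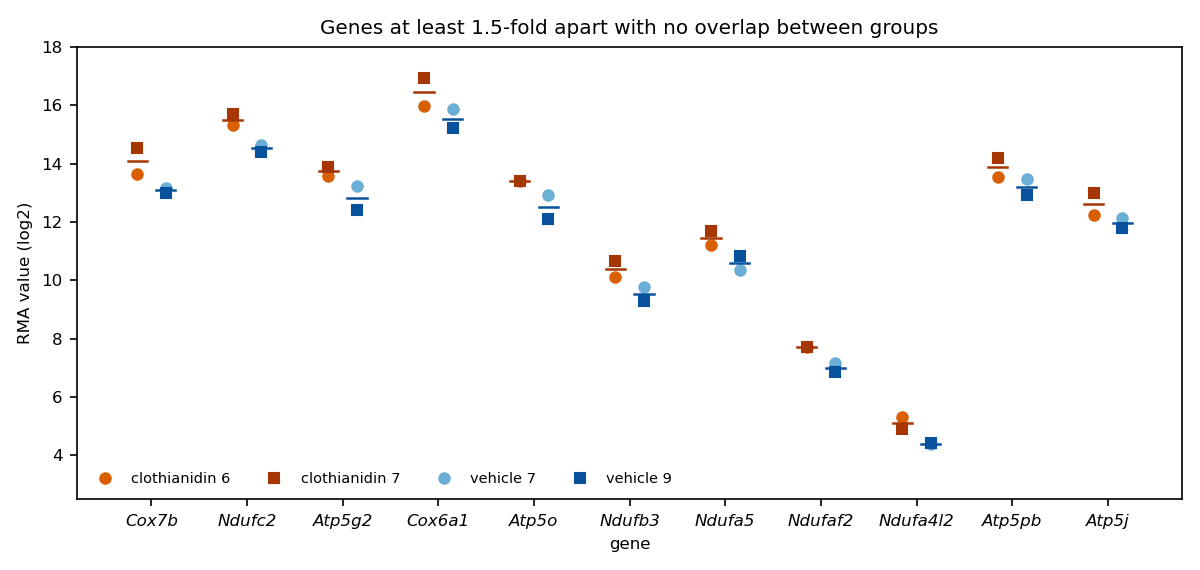
RMA values (log2, vertical axis) of the 11 genes at least 1.5-fold apart without overlap, sorted by the size of the difference, with clothianidin left of vehicle for each gene; points are arrays and short lines group means (n = 2 each). Both clothianidin points lie above both vehicle points in each gene, and the differences run from 0.64 for Atp5j to 0.995 for Cox7b on the log2 scale.

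The genes lie on 19 chromosomes, with at most 9 on one (chromosome 7), so they are not neighbours as a set. Promoter sequences, from 250 bases before to 50 after a start site, were found in RefSeq (build GRCm38.p6) for 78 of the 94 genes, in 83 windows. They were searched on both strands for GCGCATGCG, letters bound by nuclear respiratory factor 1 (NRF1), CCGGAAG, letters bound by ETS factors such as GABP, and AAGATGGCG, letters bound by YY1, all known regulators of respiratory genes. The NRF1 letters were in 11 windows (13.3%), against 1.75% of all 32851 windows in the table and 2.35% of those of protein-coding genes. The ETS letters were in 19 (22.9%), against 8.86% and 11.6%, and the YY1 letters in 8 (9.64%), against 1.4% and 1.83%. The median GC content was 58.3% in the windows of the respiratory chain genes and 56.3% in those of protein-coding genes. A match is a description of letters and not evidence of binding, and the NRF1 letters overlap with their own reverse complement where the full palindrome is present.

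Stretches from 120 bases before to 50 after the start are shown for 7 genes, 5′ to 3′, with matches in capitals. They set genes of the 11 that hold such letters (Atp5g2, Cox6a1 and Atp5j) beside others of the 11 that hold none in the window (Cox7b and Ndufc2), and beside Cycs and Ndufc1, whose values follow the array pattern. The capitals mark the NRF1 letters in Cycs and Atp5g2, the ETS letters in Cox6a1, the YY1 and ETS letters in Atp5j and the YY1 letters in Ndufc1, on either strand.
Cycs (chr6:50566520-50566689, minus strand): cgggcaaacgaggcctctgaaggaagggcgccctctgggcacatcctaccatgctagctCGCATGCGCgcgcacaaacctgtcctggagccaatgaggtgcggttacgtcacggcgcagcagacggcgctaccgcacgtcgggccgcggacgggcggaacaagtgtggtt
Atp5g2 (chr15:102670998-102671167, minus strand): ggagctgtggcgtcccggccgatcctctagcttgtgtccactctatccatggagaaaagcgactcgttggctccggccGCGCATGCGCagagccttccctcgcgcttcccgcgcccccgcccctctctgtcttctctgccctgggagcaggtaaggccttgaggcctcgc
Cox6a1 (chr5:115348909-115349078, minus strand): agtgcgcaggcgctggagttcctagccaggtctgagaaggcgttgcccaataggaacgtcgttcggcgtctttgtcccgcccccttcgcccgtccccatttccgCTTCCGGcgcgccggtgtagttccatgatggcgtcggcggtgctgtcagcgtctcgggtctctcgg
Atp5j (chr16:84834927-84835096, minus strand): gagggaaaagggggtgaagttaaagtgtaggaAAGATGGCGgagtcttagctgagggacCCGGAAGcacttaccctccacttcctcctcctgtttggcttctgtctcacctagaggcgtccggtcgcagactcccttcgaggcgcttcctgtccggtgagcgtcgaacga
Ndufc1 (chr3:51408906-51409075, minus strand): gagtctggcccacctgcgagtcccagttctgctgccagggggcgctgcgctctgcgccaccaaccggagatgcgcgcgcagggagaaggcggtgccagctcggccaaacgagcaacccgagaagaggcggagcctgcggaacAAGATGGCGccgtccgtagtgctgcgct
Cox7b (chrX:106015580-106015749, plus strand): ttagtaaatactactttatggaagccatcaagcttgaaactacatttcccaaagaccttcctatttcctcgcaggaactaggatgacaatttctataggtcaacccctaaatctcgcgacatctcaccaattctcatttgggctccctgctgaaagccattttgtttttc
Ndufc2 (chr7:97399883-97400052, plus strand): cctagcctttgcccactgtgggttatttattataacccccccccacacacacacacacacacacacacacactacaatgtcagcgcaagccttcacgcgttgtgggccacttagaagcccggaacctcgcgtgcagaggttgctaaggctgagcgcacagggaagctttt

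The NRF1 letters of Cox6a1 lie further from the start than the stretch shown, and Atp5j has a second annotated start whose window holds none of the 3 motifs.

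Complex I, the entry point for electrons from NADH, had 23 genes higher with clothianidin, 12 lower and 1 equal, with a median log2 difference of 0.20. Of its 36 genes 3 were at least 1.5-fold apart without overlap, all higher. Over all probe sets 4.04% were so far apart and higher, and 3.57% lower (7.61% together). Ndufc2, an accessory subunit of the membrane arm, was at 15.31 and 15.71 with clothianidin and 14.64 and 14.41 with vehicle, a difference of 0.985 ± 0.29 (SE) on the log2 scale (1.98-fold, limma unadjusted p = 0.00929, adjusted p = 0.997). Both clothianidin arrays were above both vehicle arrays, and with 1 array left out the difference stayed between 0.79 and 1.19. Ndufb3, another membrane arm subunit, was at 10.13 and 10.67 with clothianidin and 9.78 and 9.29 with vehicle, a difference of 0.87 ± 0.32 (SE). Ndufa5, an accessory subunit of the arm that holds the quinone site, was at 11.20 and 11.69 with clothianidin and 10.37 and 10.84 with vehicle, a difference of 0.84 ± 0.31 (SE). In these 3 genes the difference of the group means was larger than the gap within either group.

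Other complex I genes followed the array pattern and not the groups. Ndufb9, an accessory subunit of the far end of the membrane arm, was at 11.62 and 14.28 with clothianidin and 13.34 and 12.74 with vehicle. Ndufc1 was at 12.21 and 14.49 with clothianidin and 13.24 and 13.04 with vehicle. In both the vehicle values lay between the clothianidin values. The 11 Ndufb genes had a median gap of 1.08 between clothianidin replicates 7 and 6, against 0.52 for the 19 other accessory subunits and 0.92 for the 6 core subunits, and 11 of 11 were higher on replicate 7. Ndufb4, with the lowest log2 difference of the 94 genes (-0.65), was at 12.73 and 14.54 with clothianidin and 14.55 and 14.03 with vehicle. Ndufb4b, a close copy of Ndufb4 (shared signal between them was not tested), was at 13.10 and 15.20 with clothianidin and 14.25 and 13.59 with vehicle.

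The core subunits carry the flavin and the iron-sulphur clusters through which electrons pass. Ndufs1, the large iron-sulphur subunit, was at 12.02 and 11.92 with clothianidin and 11.77 and 11.45 with vehicle, a difference of 0.36 ± 0.28 (SE). Its groups did not overlap, and clothianidin replicate 6 was its highest array. Ndufv1, which binds NADH, was at 13.93 and 14.07 with clothianidin and 14.45 and 13.80 with vehicle, so its groups overlapped. Ndufs7, an iron-sulphur subunit near the quinone site, was at 11.33 and 12.39 with clothianidin and 12.45 and 10.90 with vehicle, and its gap of 1.55 between the vehicle arrays was the largest of the 94 genes.

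The complex I assembly factors, which help to build the complex and are not part of it, had 8 of 8 means higher with clothianidin and a median log2 difference of 0.32. Over all probe sets 48.1% of means were higher. The 39 other assembly factor genes of complexes I to V had 27 means higher and 11 lower, and a median log2 difference of 0.06. Ndufaf2, needed in late assembly, was at 7.73 and 7.71 with clothianidin and 7.15 and 6.84 with vehicle, a difference of 0.73 ± 0.28 (SE) that ranged from 0.57 to 0.88 with 1 array left out. Ndufaf7, a methyltransferase that acts on a core subunit, was at 8.22 and 8.38 with clothianidin and 8.02 and 7.71 with vehicle. Their groups did not overlap, and nor did those of Ndufaf4, at 11.72 and 11.61 with clothianidin and 11.55 and 11.52 with vehicle. Ndufaf6 was at 7.37 and 7.18 with clothianidin and 7.30 and 6.47 with vehicle, and Ndufaf3 at 8.28 and 9.30 with clothianidin and 8.67 and 8.14 with vehicle, so these overlapped. Vehicle replicate 9 was the lowest array for 7 of the 8 genes, and the median difference of the class was 0.61 without vehicle replicate 7 and 0.12 when vehicle replicate 9 was left out. It was 0.08 without clothianidin replicate 7, when 4 genes were higher and 4 lower.

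Complex II, succinate dehydrogenase, also a step of the tricarboxylic acid cycle, had 2 genes higher and 2 lower, and a median log2 difference of 0.01. Sdha, the flavoprotein, was at 11.93 and 11.61 with clothianidin and 12.25 and 11.64 with vehicle. Sdhb, the iron-sulphur subunit, was at 13.12 and 13.74 with clothianidin and 13.52 and 13.12 with vehicle. The groups overlapped in both, and Sdha was one of the 2 genes of the 94 for which clothianidin replicate 7 was the lowest array, the other being Ndufa9. The membrane anchors Sdhc and Sdhd had log2 differences of 0.15 ± 0.27 and -0.09 ± 0.34 (SE). Leaving out vehicle replicate 9 gave a median of -0.28 for the complex and leaving out vehicle replicate 7 gave 0.28.

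Complex III, which oxidises ubiquinol, had 4 genes higher and 4 lower, a median log2 difference of 0.04 and no gene without overlap. Uqcrb, a small subunit, was at 15.88 and 16.55 with clothianidin and 15.99 and 15.35 with vehicle, a difference of 0.54 ± 0.35 (SE). Uqcrh, the hinge protein, was at 13.49 and 14.35 with clothianidin and 14.50 and 13.81 with vehicle. The core protein gene Uqcrc1 was at 12.97 and 13.27 with clothianidin and 13.28 and 12.65 with vehicle. The small subunit gene Uqcr10 and the core protein gene Uqcrc2 had log2 differences of -0.14 ± 0.36 and 0.09 ± 0.32 (SE). In each of the 8 genes replicate 7 was the higher of the 2 arrays in both groups. Uqcrfs1, the Rieske iron-sulphur protein, had a log2 difference of -0.12 ± 0.29 (SE). Cyc1, the cytochrome subunit of the complex, is not among the 94 genes. It was at 9.57 and 10.45 with clothianidin and 10.70 and 10.50 with vehicle, a difference of -0.59 ± 0.35 (SE). Cyc1 was thus at least 1.5-fold lower with clothianidin, without overlap. Cycs, the soluble electron carrier, was at 15.12 and 16.00 with clothianidin and 15.14 and 14.97 with vehicle, a difference of 0.51 ± 0.35 (SE) that was 0.07 without clothianidin replicate 7.

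Complex IV, cytochrome c oxidase, had 13 genes higher and 7 lower with clothianidin and a median log2 difference of 0.13. Cox7b, a small subunit, was at 13.63 and 14.54 with clothianidin and 13.17 and 13.01 with vehicle, a difference of 0.995 ± 0.35 (SE) on the log2 scale (1.99-fold, limma unadjusted p = 0.0223, adjusted p = 0.997). Its groups did not overlap, and without clothianidin replicate 7 the difference was 0.54. Cox6a1, the widely expressed isoform of subunit VIa, was at 15.96 and 16.95 with clothianidin and 15.88 and 15.21 with vehicle, a difference of 0.91 ± 0.40 (SE) in which clothianidin replicate 6 lay only just above vehicle replicate 7. Ndufa4, named as a complex I gene and now counted with complex IV, was at 14.34 and 15.60 with clothianidin and 14.66 and 14.14 with vehicle, with overlap. Its paralog Ndufa4l2, known as a gene induced by low oxygen, was at 5.30 and 4.89 with clothianidin and 4.40 and 4.41 with vehicle, without overlap. The values of Ndufa4l2 lay below the median of all probe sets, where it is not known whether a transcript was detected.

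Cox4i1, the regulatory subunit IV, went the other way in its mean, at 12.97 and 14.14 with clothianidin and 14.49 and 13.76 with vehicle, a log2 difference of -0.57 ± 0.44 (SE) with overlapping groups. Cox5a was at 12.96 and 13.34 with clothianidin and 13.19 and 13.18 with vehicle, the vehicle arrays agreeing closely and lying between the clothianidin arrays. Several subunits have a second isoform used in other tissues, and 7 such genes were measured, Cox4i2 of lung, Cox6a2, Cox7a1 and Cox8b of heart and skeletal muscle, Cox6b2 and Cox8c of testis, and Cox7b2. All but Cox7a1 lay below the median of all probe sets. They had 3 means higher and 4 lower and a median log2 difference of -0.13, against 0.25 for the 11 common isoforms, with 8 higher and 3 lower. Cox6a2 was at 4.93 and 4.76 with clothianidin and 4.81 and 4.72 with vehicle. Cox7a1 was at 6.47 and 7.41 with clothianidin and 6.37 and 7.33 with vehicle, alternating within both groups. Of the common isoforms, Cox7a2, Cox6b1 and Cox8a had log2 differences of 0.25, 0.30 and 0.60, and their groups overlapped. Cox7a2l was at 10.81 and 10.84 with clothianidin and 11.07 and 10.63 with vehicle, with the vehicle arrays on either side.

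Complex V, the ATP synthase, had 13 genes higher and 4 lower with clothianidin and a median log2 difference of 0.33, which was 0.87 without clothianidin replicate 6 and -0.20 without clothianidin replicate 7. The peripheral stalk, which holds the catalytic head still, had 3 of its 4 genes at least 1.5-fold apart, all higher. Over all probe sets 4.04% were so far apart without overlap and higher, and 3.57% lower. Atp5o, the subunit that joins stalk and head, was at 13.40 and 13.42 with clothianidin and 12.94 and 12.10 with vehicle, a difference of 0.89 ± 0.34 (SE). Atp5pb, subunit b, was at 13.55 and 14.21 with clothianidin and 13.49 and 12.94 with vehicle, and Atp5j, coupling factor 6, at 12.24 and 12.99 with clothianidin and 12.14 and 11.81 with vehicle. In Atp5pb and Atp5j the groups were separated by 0.06 and 0.10 between their nearest arrays, less than the gap within either group. Their limma unadjusted p was 0.0873 and 0.0927. Atp5h, the fourth stalk gene, was at 14.66 and 15.95 with clothianidin and 15.37 and 15.05 with vehicle, with overlap.

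The rotating c ring is made from 1 mature protein encoded by the genes Atp5g1, Atp5g2 and Atp5g3. Atp5g2 was at 13.59 and 13.89 with clothianidin and 13.22 and 12.42 with vehicle, a difference of 0.92 ± 0.34 (SE). Atp5g3 was at 14.12 and 14.27 with clothianidin and 14.04 and 13.47 with vehicle, without overlap, and Atp5g1 at 12.67 and 13.67 with clothianidin and 13.11 and 12.50 with vehicle, with overlap. Vehicle replicate 9 was the lowest array for all 3. The 5 genes of F1, the part that includes the catalytic head, had log2 differences of -0.52 to 0.33. Atp5e, the epsilon subunit, was lowest and Atp5d, the delta subunit, highest. Atp5a1 and Atp5b, which encode the alpha and beta subunits, had 0.19 ± 0.29 and 0.13 ± 0.37 (SE). Atp5b was at 16.49 and 17.47 with clothianidin and 16.97 and 16.74 with vehicle, so the vehicle arrays again lay between. Of the other membrane subunits, Atp5md had the largest gap between the clothianidin arrays of the 94 genes, at 13.10 and 16.25 with clothianidin and 15.21 and 14.58 with vehicle, and Atp5l was at 11.87 and 13.92 with clothianidin and 13.44 and 13.15 with vehicle. Atp5mpl was at 12.78 and 13.46 with clothianidin and 13.12 and 11.98 with vehicle.

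The gaps between arrays of one group can be read directly. Clothianidin replicate 7 exceeded clothianidin replicate 6 for 85 of the 94 genes, by a median of 0.67, and by at least 1.5-fold for 49 (52.1%), against 11.6% of all probe sets. The reverse gap of at least 1.5-fold was seen for 0 genes, against 9.93% of all probe sets. Vehicle replicate 7 exceeded vehicle replicate 9 for 83 genes, by a median of 0.34, and by at least 1.5-fold for 27 (28.7%), against 12% of all probe sets. The vehicle gap ran the other way by that much for 2 genes, Cox7a1 and Ndufaf8, against 11.8% of all probe sets. The gap between the clothianidin arrays was larger than the group difference for 74 genes, that between the vehicle arrays for 55, and at least one of them for 81. The same counts were not made over all probe sets. A gap between 2 single arrays varies more than a difference between means of 2 arrays. So these counts alone do not set the 94 genes apart. The 9 genes not higher on clothianidin replicate 7 than on replicate 6 were Ndufa9, Ndufs1, Ndufaf2, Ndufaf4, Ndufaf6, Sdha, Sdhc, Cox6a2 and Ndufa4l2. Over the 94 genes the gaps of the 2 groups had Pearson's r of 0.13 and Spearman's rho of 0.09, as a description across genes that share the same 4 arrays.

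**Figure D4:**
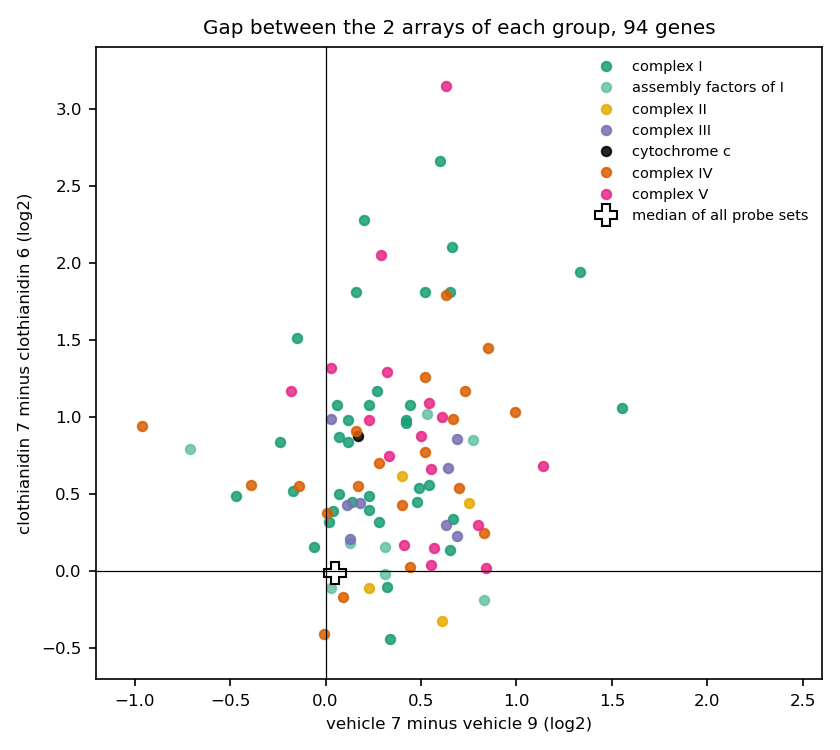
Each point is 1 of the 94 genes, with the log2 gap between vehicle replicates 7 and 9 on the horizontal axis and that between clothianidin replicates 7 and 6 on the vertical axis, coloured by complex; the cross is the median of all probe sets (0.05 and -0.01). Of the 94 points 75 lie in the upper right, where replicate 7 is the higher array in both groups.

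Other mitochondrial and energy genes were set beside the respiratory chain, by their counts and medians only. The 76 genes of the mitochondrial ribosome had median deviations of -0.11 and 0.38 with clothianidin and 0.01 and -0.28 with vehicle, and a median log2 difference of 0.24 with 60 higher and 16 lower. Of these 3 (3.95%) were at an unadjusted limma p under 0.05, near the 4.23% of all probe sets, among them Mrpl42 at 10.84 and 11.44 with clothianidin and 10.27 and 10.17 with vehicle. The 57 cytosolic ribosomal protein genes, which are not mitochondrial, had -0.37 and 0.50 with clothianidin and 0.12 and -0.25 with vehicle, and clothianidin replicate 7 was their highest array for 48 (84.2%). So their array order was that of the respiratory chain, with a gap between the clothianidin arrays at least as wide. The 39 other assembly factor genes of complexes I to V had -0.07 and 0.17 with clothianidin and 0.08 and -0.16 with vehicle, 27 of them higher and 11 lower. The 17 measured genes of pyruvate dehydrogenase and the tricarboxylic acid cycle had -0.02 and 0.22 with clothianidin and 0.09 and -0.22 with vehicle, 12 of them higher and 4 lower. The 14 glycolysis genes had 0.09 and -0.01 with clothianidin and 0.18 and -0.17 with vehicle, without the high value on clothianidin replicate 7.

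Among 13 regulators of mitochondrial biogenesis the clothianidin mean was the higher for 9 and the lower for 4 (median log2 difference 0.15). Polrmt, the RNA polymerase of mitochondria, was at 6.01 and 5.92 with clothianidin and 4.62 and 4.70 with vehicle, a difference of 1.30 ± 0.27 (SE) at values below the median of all probe sets (limma unadjusted p = 0.00121, adjusted p = 0.997). Ppargc1b, a coactivator of respiratory genes, was at 11.76 and 11.22 with clothianidin and 10.84 and 10.97 with vehicle. Both clothianidin arrays were above both vehicle arrays in these 2 genes, and in each clothianidin replicate 6 was the higher array, the reverse of the respiratory chain. None of the genes in these lists passed limma at an adjusted p of 0.05.

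**Figure D5:**
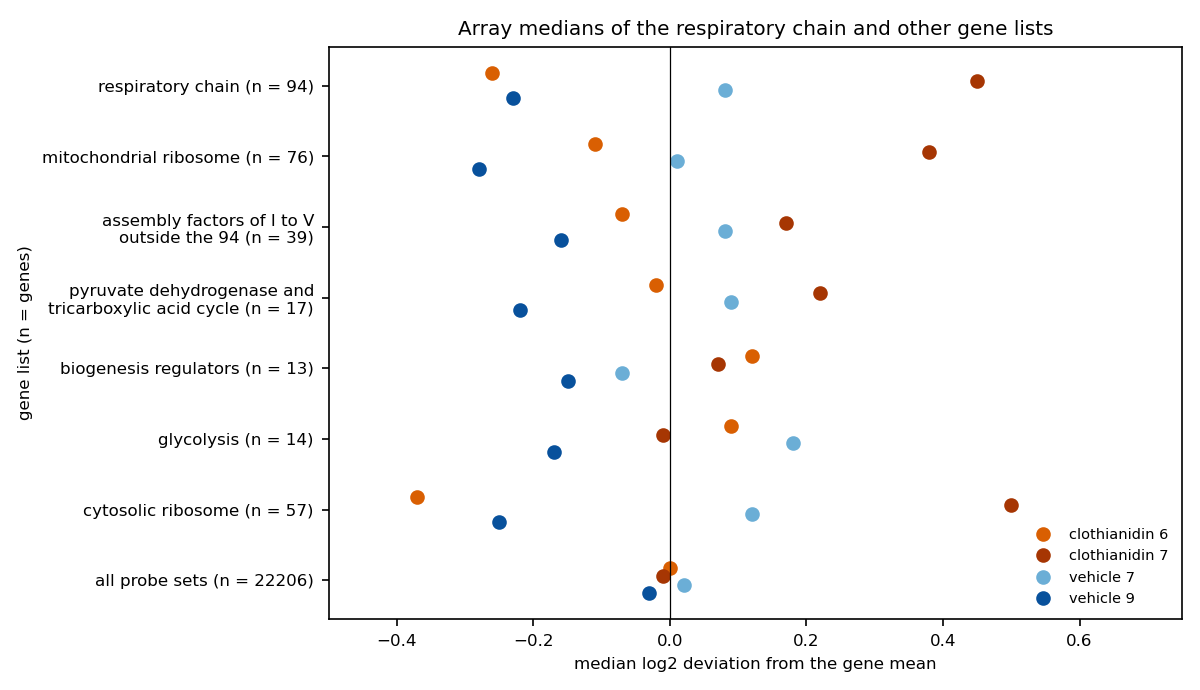
Points give the median deviation of each gene list from its gene means (log2, horizontal axis) on clothianidin replicates 6 and 7 and vehicle replicates 7 and 9. The respiratory chain, the mitochondrial ribosome and the cytosolic ribosome have clothianidin replicate 7 far to the right (0.45, 0.38 and 0.50), while glycolysis and all probe sets have it near 0 (-0.01 each).

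The array pattern was also set against level and gene size. Of the 94 genes, 85 had a mean at or above the median of all probe sets. Among the 2182 probe sets no lower than the 94 genes' own median level, the median deviations were 0.11 and -0.04 with clothianidin and 0.05 and -0.13 with vehicle, without the high value on clothianidin replicate 7. The genes are short, with a median span from start to end of 7154 bases in the RefSeq annotation, against 17785 bases for all named genes, and 66 of 94 (70.2%) span under 10 kb, against 34.9%. Probe sets of genes under 10 kb with a mean at or above the overall median (2197 in number) had median deviations of -0.05 and 0.11 with clothianidin and 0.07 and -0.15 with vehicle, with clothianidin replicate 7 highest and vehicle replicate 7 next, at a smaller size than in the respiratory chain. Those of longer genes at such levels had 0.12 and -0.04 with clothianidin and 0.05 and -0.13 with vehicle. Within the 94 genes the median gap between clothianidin replicates 7 and 6 was 0.84 for the 66 under 10 kb and 0.44 for the other 28. The part of gene size in the array pattern was not tested.

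The values were also set beside the promoter letters searched for above. The clothianidin mean was the higher for 9 of the 11 genes with the NRF1 letters, whose median log2 difference was 0.16, against 0.19 for the 67 genes whose windows lack them. The median gap between clothianidin replicates 7 and 6 was 0.45 with the NRF1 letters and 0.79 without, 0.86 with the ETS letters and 0.56 without, and 0.77 with the YY1 letters and 0.81 without. Genes with and without these letters thus both showed the high value on clothianidin replicate 7, and the differences between them were not tested.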

How the data were processed

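RNA of 4 mouse cerebellum samples was measured on Affymetrix whole-transcript arrays. The authors deposited RMA summaries (named in the submitters' processing notes) as log2 values with 2 decimals. The base of the logarithm is not stated and was taken as 2. Signal over background is unknown, and the number of arrays limits the precision. Gene names came from the platform annotation. Each of the 94 genes had 1 probe set, and its symbol was the same in RefSeq (GRCm38.p6).

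All 22206 probe sets were fitted with limma 3.58.1 in R 4.3.3 (lmFit, eBayes), clothianidin against vehicle, with Benjamini-Hochberg adjustment over all of them. The prior SD was 0.306 with 5.96 degrees of freedom, added to 2 residual ones. Genes whose arrays did not overlap between groups and whose means were 1.5-fold apart or more were counted as well. Deviations are values minus the gene's mean over the 4 arrays. Tables were summarised in Python 3.11.15, and the fit was tested on simulated data. The genes, lists and tests were chosen with earlier results of these data known. Genes were named per complex by the largest differences and array gaps, unadjusted p under 0.05, 1.5-fold separation, core subunits and tissue isoforms, and from other lists by the smallest p. Ndufa9, Ndufb4, Ndufb4b, Ndufc1, Ndufaf4, Ndufaf8, Atp5d, Atp5e, Atp5h and Atp5l were outside this rule and were named after their values were seen. Alternatives were median centring, quantile normalization, filters on level, other priors, no moderation, the mean over probe sets, and leaving out each array.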

Additional observations from a re-analysis of the deposited data

How the results depend on the processing

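No paired analysis was possible because the groups share only 1 replicate number. Leaving out an array leaves a group with a single array, which is assumed to vary like the other group. No respiratory chain gene was called under any alternative. Over all probe sets 8 were called without moderation and 0 to 1 with 1 array left out. At unadjusted p under 0.05 there were 1 gene without moderation and 1 to 17 with 1 array left out, against 8 in the main analysis. Genes at least 1.5-fold apart without overlap numbered 11 to 41 with 1 array left out, against 11, all higher, in the main analysis. They included 16 lower genes of 23 without clothianidin replicate 7 and 6 of 11 without vehicle replicate 9, where 17.4% and 14.5% of all probe sets were so far apart. After quantile normalization 8 genes were at least 1.5-fold higher without overlap and 0 lower, against 3.47% and 3.18% of all probe sets. With the limit to levels at or above the median, 10 were higher and 0 lower, against 6.26% and 2.06% of the probe sets kept. With 1 array left out the median log2 difference was -0.155 to 0.5175 for all 94 genes, 0.08 to 0.6125 for the complex I assembly factors, -0.275 to 0.2775 for complex II and -0.2 to 0.865 for complex V. The medians of all complexes moved by less than the spread between arrays under median centring, quantile normalization and the limit to levels at or above the median, though those of complexes II and III were -0.0672 and -0.0544 after quantile normalization. Of 49 genes named by the rule, 18 kept their sign with each array left out, 1 (Atp5mpl) came to 0 with an array left out and 30 changed sign, and 0 changed sign under another alternative. With 1 array left out, the log2 differences of these 30 were -1.42 to 1.24 for Ndufb9, -0.59 to 0.96 for Ndufs7, -0.45 to 0.2 for Ndufv1, -0.125 to 0.895 for Ndufaf3, -0.025 to 0.805 for Ndufaf6, -0.48 to 0.13 for Sdha, -0.2 to 0.42 for Sdhb and -0.46 to 0.29 for Sdhd. They were -0.635 to 0.355 for Uqcr10, -0.16 to 0.47 for Uqcrc1, -0.255 to 0.435 for Uqcrc2, -0.34 to 0.1 for Uqcrfs1, -0.665 to 0.195 for Uqcrh, -1.155 to 0.015 for Cox4i1, -0.545 to 0.005 for Cox4i2 and -0.225 to 0.155 for Cox5a. They were -0.005 to 0.165 for Cox6a2, -0.215 to 0.815 for Cox6b1, -0.495 to 1.295 for Cox6b2, -0.39 to 0.57 for Cox7a1, -0.03 to 0.52 for Cox7a2, -0.245 to 0.195 for Cox7a2l, -0.465 to 0.095 for Cox7b2 and -0.725 to 0.105 for Cox8b. They were -0.48 to 0.22 for Cox8c, -0.06 to 1.2 for Ndufa4, -0.015 to 0.395 for Atp5a1, -0.365 to 0.615 for Atp5b, -0.135 to 0.865 for Atp5g1 and -1.795 to 1.355 for Atp5md. The cause was not tested.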
